A study of Mus musculus with 23 samples.

Results

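The genes described here are the nuclear-encoded subunits of the oxidative phosphorylation system, measured in 23 mouse liver samples. They were taken as every protein-coding row whose symbol begins with Ndufa, Ndufb, Ndufc, Ndufs or Ndufv and a digit, with Uqcr, with Cox4 to Cox8 or with Atp5, together with Sdha, Sdhb, Sdhc and Sdhd. This gave 89 of the 65535 gene IDs of the table, of which 83 passed the filter on low counts and were tested. The tested members were 36 of complex I, 4 of complex II, 8 of complex III, 16 of complex IV and 19 of complex V. Ndufa4 and Ndufa4l2 were counted with complex IV, where the NDUFA4 protein is now placed. The symbol rule leaves out a few subunits, such as Ndufab1 of complex I and Cyc1 of complex III.

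The samples were bulk liver, with 5 Female WT and 6 Male WT samples of the line 129S1/SvImJ, and 6 Female KO and 6 Male KO samples of the line 129/Sv-Cyp2e1tm1Gonz/J, in which Cyp2e1 is disrupted. Every group was fed normal chow with no other treatment named, and since each genotype is a separate line, the disruption and other differences of the lines cannot be told apart. The labels give an age of 12 to 13 weeks in one field and 16 weeks in another. Nothing in the labels says that the replicates of a group came from separate animals, and p-values then measure the spread between these samples. Library totals ran from 1538889 counts (Male KO replicate 3) to 9874733 (Male WT replicate 3), and the members took 2.07% to 2.96% of them. Cyp2e1 itself was lower in KO, with a log2 fold change of -3.89 in females and -3.84 in males. The 6 hepatocyte markers, Alb among them, summed to between 69757 and 95563 CPM (the deposited counts scaled to a common library total). In bulk tissue, fewer cells of a type and less RNA per cell cannot be told apart.

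Oxidative phosphorylation couples the oxidation of NADH and succinate to ATP synthesis in the inner mitochondrial membrane. Complex I (NADH dehydrogenase) and complex II (succinate dehydrogenase) pass electrons to ubiquinone, complex III (cytochrome bc1) passes them to cytochrome c and complex IV (cytochrome c oxidase) to oxygen, and complex V (ATP synthase) uses the resulting proton gradient. Complex II is built from nuclear genes alone, and the others mix nuclear and mitochondrial gene products. In liver the system supplies energy for urea synthesis and gluconeogenesis, and CYP2E1, mostly an enzyme of the endoplasmic reticulum, is also found in mitochondria.

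Transcription factors known to bind promoters of such genes include NRF1, the ETS factor GABP (one subunit is encoded by Gabpa) and YY1. RefSeq promoter windows on GRCm38.p6, from 250 bases before to 50 bases after the gene start, were matched for 69 of the 89 members, which are 68 genes. The NRF1 motif, read as GCGCA and GCGC with any 1 base between them, was found on either strand in 17 of these 68 genes (25%), against 7.17% of all 17492 genes with a window. The ETS motif CCGGAAG was found in 16 (23.5%) against 12.9%, and the YY1 motif AAGATGGC in 10 (14.7%) against 3.57%. The TATA motif TATAAA was found in 7 (10.3%) against 14.8%. A match is a string of letters and does not show that a factor binds.

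The windows printed next belong to members named in the results below. Sdhd had the smallest p of all members in both genotype comparisons. Uqcr11, Ndufb2 and Cox7a2 were called between the sexes in KO livers. Cox8b, known as a heart and muscle form, was high in 4 livers. Each is written 5′ to 3′ on the strand of its gene, and capitals mark motif matches.
Sdhd, chr9:50603800-50604099, minus strand: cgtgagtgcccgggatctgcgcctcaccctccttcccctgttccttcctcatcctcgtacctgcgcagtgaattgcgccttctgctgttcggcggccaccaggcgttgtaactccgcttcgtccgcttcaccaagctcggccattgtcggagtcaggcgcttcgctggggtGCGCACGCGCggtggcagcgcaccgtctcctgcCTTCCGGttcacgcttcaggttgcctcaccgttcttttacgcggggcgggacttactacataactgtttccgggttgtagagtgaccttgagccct
Uqcr11, chr10:80406772-80407071, minus strand: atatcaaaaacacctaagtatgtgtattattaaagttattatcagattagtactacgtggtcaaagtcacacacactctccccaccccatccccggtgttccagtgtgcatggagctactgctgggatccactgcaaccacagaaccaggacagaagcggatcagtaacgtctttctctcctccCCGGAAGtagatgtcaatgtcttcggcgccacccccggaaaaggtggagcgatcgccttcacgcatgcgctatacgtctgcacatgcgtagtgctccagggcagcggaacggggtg
Ndufb2, chr6:39592315-39592614, plus strand: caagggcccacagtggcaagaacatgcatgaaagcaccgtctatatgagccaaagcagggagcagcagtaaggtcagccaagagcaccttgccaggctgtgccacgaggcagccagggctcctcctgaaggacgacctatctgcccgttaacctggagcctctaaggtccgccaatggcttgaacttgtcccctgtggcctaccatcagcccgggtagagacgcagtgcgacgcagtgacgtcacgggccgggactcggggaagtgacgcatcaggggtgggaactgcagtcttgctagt
Cox7a2, chr9:79759804-79760103, minus strand: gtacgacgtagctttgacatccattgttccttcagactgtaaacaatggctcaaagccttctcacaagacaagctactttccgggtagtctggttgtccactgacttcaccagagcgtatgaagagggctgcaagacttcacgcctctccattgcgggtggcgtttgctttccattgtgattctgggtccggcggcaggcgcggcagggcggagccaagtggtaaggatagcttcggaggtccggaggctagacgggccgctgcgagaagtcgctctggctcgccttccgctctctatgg
Cox8b, chr7:140900397-140900696, minus strand: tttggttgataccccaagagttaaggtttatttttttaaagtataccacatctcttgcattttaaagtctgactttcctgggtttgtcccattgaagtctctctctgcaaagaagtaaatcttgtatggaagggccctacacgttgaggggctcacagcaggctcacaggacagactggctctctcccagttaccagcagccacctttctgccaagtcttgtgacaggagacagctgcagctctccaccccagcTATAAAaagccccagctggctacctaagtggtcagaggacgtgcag
The capitals in the Sdhd window are an NRF1 match that begins 79 bases before the start and an ETS match, on the opposite strand, that begins 46 bases before it. The Uqcr11 window holds an ETS match 66 bases before the start, and the Cox8b window a TATA match just past its annotated start. No matches overlapped, and the Ndufb2 and Cox7a2 windows held none of the 4 motifs.

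The genotype comparisons ask whether the respiratory chain genes differ between livers with and without Cyp2e1. In females no member was called: 0 of 83 had an adjusted p under 0.05 (edgeR's quasi-likelihood test, Benjamini-Hochberg over 11370 genes), where 0.193% of all tested genes did. DESeq2 called 0 and limma-voom 0. At an unadjusted p under 0.05 there were 3 members, Sdhd, Ndufs1 and Cox6b2, against 8.84% of all genes. The fold change was positive in 71 of 83 members, against 51.7% of all genes. The median log2 fold change of the members was 0.09, against 0.01 over all genes, and by complex it was 0.10 (I), 0.04 (II), 0.12 (III), 0.10 (IV) and 0.08 (V). Without Female KO replicate 4 the median of the members was 0.01. In that liver the summed CPM was 25.8 for 6 sinusoidal endothelium markers (other Female KO livers 55.5 to 97.4), 108 for 7 stellate cell and fibroblast markers (201 to 253) and 68.7 for 8 Kupffer cell and macrophage markers (94.2 to 283), and their part in the members' values was not tested.

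In males no member was called either, while more had a low unadjusted p. Of the 83 members 0 passed, against 0.132% of all tested genes, and DESeq2 called 0 and limma-voom 0. At an unadjusted p under 0.05 there were 33 members, against 13.1% of all genes. Of these 32 were higher in KO, against 7.92% of all genes, and 1 was lower, against 5.2%. The fold change was positive in 74 of 83 members, against 55.9% of all genes. The median was 0.25, against 0.04 over all genes, and by complex it was 0.22 (I), 0.15 (II), 0.35 (III), 0.31 (IV) and 0.31 (V). With sample weights limma-voom called 32 members, all higher in KO. The share of all genes called with these weights is not given here, so the count is not set against it. In that fit Male KO replicates 1, 2 and 3 carried weights of 0.496, 0.318 and 0.510.

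**Figure D1:**
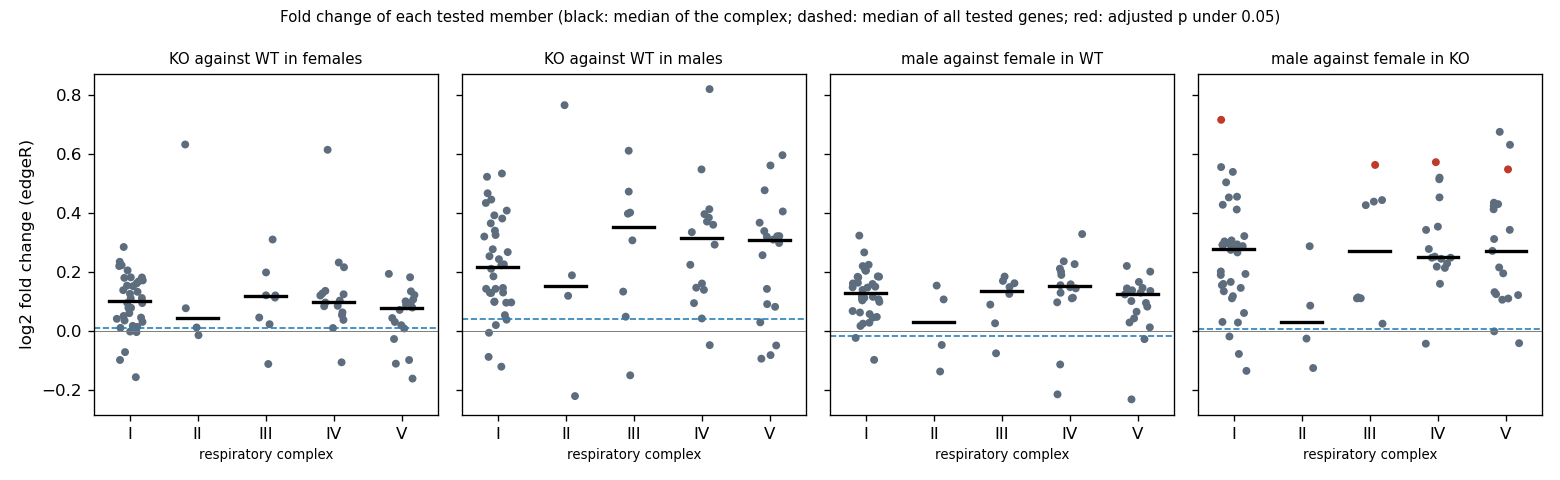
Log2 fold change (edgeR, y axis) of each tested member by respiratory complex (x axis) in 4 contrasts, with the median of each complex and of all tested genes as lines. The complex medians of KO against WT lie between 0.15 and 0.35 in males and between 0.04 and 0.12 in females.

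In complex II, Sdhd encodes a small membrane anchor of succinate dehydrogenase. Across Female WT its CPM was 9.57, 14.1, 9.46, 12.9 and 14.1, and across Female KO 11.1, 17.1, 21.4, 21.4, 23.3 and 14.9. Of the 6 Female KO livers 5 lay above every Female WT liver and replicate 1 lay within their range (log2 fold change 0.63, SE 0.23, edgeR adjusted p = 0.381). Across Male WT it was 11.1, 14.2, 10.8, 10.0, 9.56 and 9.68, and across Male KO 12.4, 16.5, 31.0, 19.4, 18.8 and 11.4. Male KO replicates 1 and 6 lay below the highest Male WT liver and the other 4 above it (log2 fold change 0.77, SE 0.23, edgeR adjusted p = 0.188). With no filter on low counts Sdhd was called in males, at a log2 fold change of 0.70 (edgeR adjusted p = 0.0430).

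Sdha, the flavoprotein that oxidises succinate, was the 1 member with a negative fold change and an unadjusted p under 0.05 in males. Its CPM across Male WT was 247, 248, 271, 263, 260.3 and 259, and across Male KO 239, 265, 166, 205, 187 and 202. Male KO replicate 2 lay among the WT livers and the other 5 below them all (log2 fold change -0.22, SE 0.09, edgeR adjusted p = 0.312). In females its log2 fold change was 0.01. Sdhb, the iron-sulfur subunit, had -0.01 in females and 0.12 in males, and Sdhc, the other anchor, 0.08 and 0.19.

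**Figure D2:**
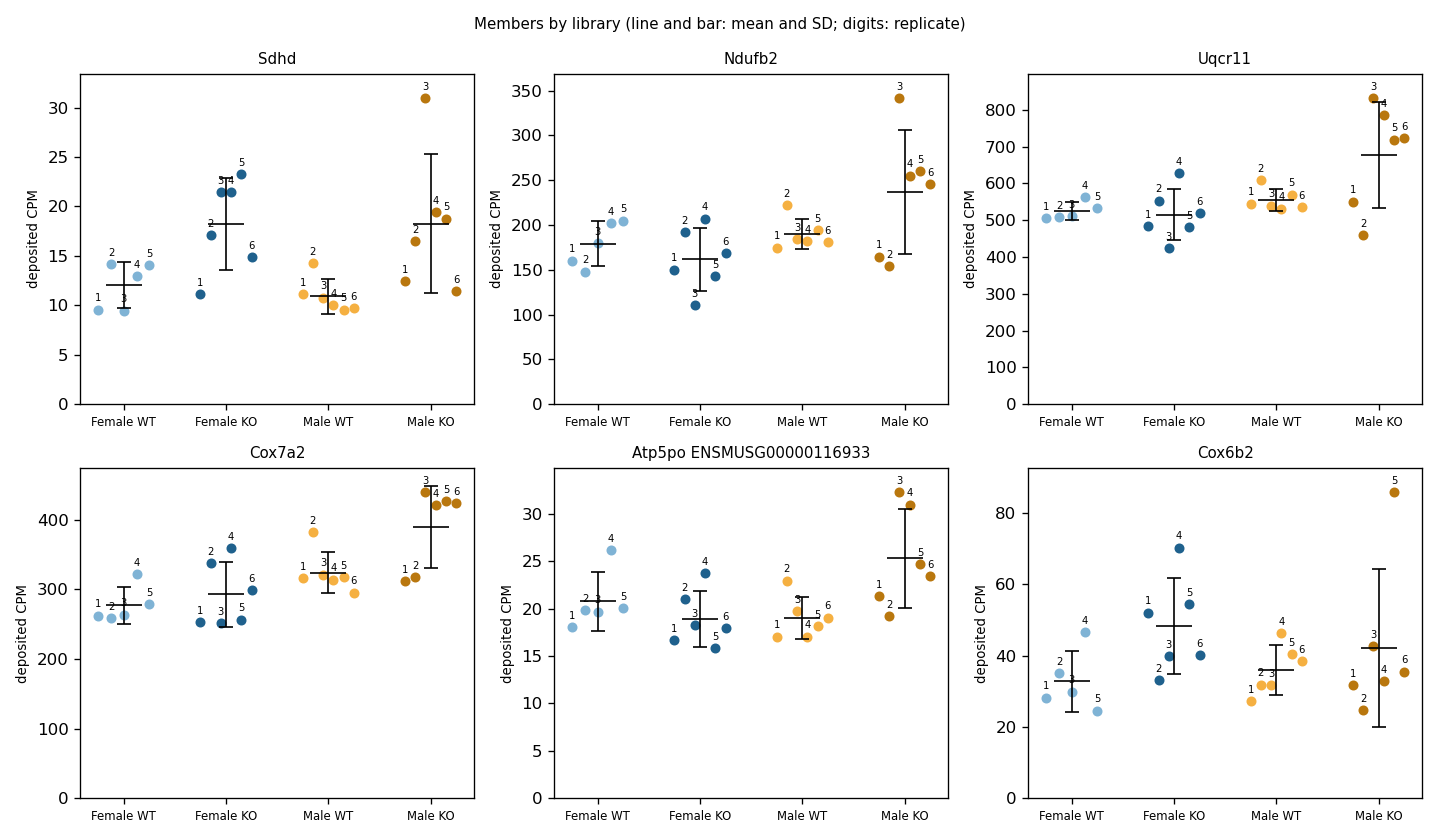
Deposited CPM (y axis) of 6 members in each liver by group (x axis), with replicate numbers beside the points and the mean and SD as line and bar. Sdhd reaches 31.0 CPM in Male KO replicate 3, and in Cox7a2, Ndufb2 and Uqcr11 the Male KO replicates 3 to 6 lie above every other Male KO liver and every Female KO liver.

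In complex I, most of the core subunits named here bind NADH or carry electrons towards ubiquinone. Core subunits had male log2 fold changes of -0.01 (Ndufs7), 0.02 (Ndufs1), 0.04 (Ndufs3), 0.05 (Ndufv1), 0.10 (Ndufs8) and 0.23 (Ndufv2). Accessory subunits ran from -0.12 (Ndufa10) to 0.53 (Ndufb8), with 0.13 (Ndufa3), 0.13 (Ndufa9) and 0.14 (Ndufa13) in between and 0.52 (Ndufb4), 0.47 (Ndufa7) and 0.45 (Ndufb9) near the upper end. None of these passed the adjusted threshold. Ndufb8, of the membrane arm, had the smallest p of complex I in males. Its CPM across Male WT was 204 at the lowest, 211 at the median and 310.3 at the highest, and across Male KO 208 at the lowest, 292 at the median and 500.3 at the highest, so the groups overlapped (log2 fold change 0.53, SE 0.20, edgeR adjusted p = 0.298). Without Male KO replicate 3 its log2 fold change was 0.30.

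Ndufs1, which holds iron-sulfur clusters, had the smallest p of complex I in females. Across Female WT its CPM was 46.6, 42.0, 46.4, 50.5 and 40.7, and across Female KO 48.2, 56.7, 55.4, 49.5, 49.0 and 50.2. The groups overlapped through Female WT replicate 4 (log2 fold change 0.22, SE 0.09, edgeR adjusted p = 0.467). Ndufb9, an accessory subunit, had a mean CPM of 615 ± 46.5 (SD, n = 6) for Male WT and 774 ± 191 (SD, n = 6) for Male KO. Ndufs4, an accessory subunit whose loss in mice causes a Leigh-like disease, had log2 fold changes of 0.16 in females and 0.32 in males.

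In complex III, Uqcrh, the hinge subunit, had the smallest p in both sexes. Across Male WT its CPM was 484, 656, 499, 440.2, 522 and 474, and across Male KO 519, 438, 1139, 715, 799 and 710.2. Male KO replicates 1 and 2 lay below the highest WT liver, and replicates 3 to 6 above it (log2 fold change 0.61, SE 0.20, edgeR adjusted p = 0.232). Without Male KO replicate 3 the male log2 fold change was 0.39, and in females it was 0.31 (edgeR adjusted p = 0.734). The small subunits Uqcr10, Uqcr11, Uqcrq and Uqcrb had male values of 0.47, 0.40, 0.40 and 0.31. Uqcrfs1, the Rieske iron-sulfur protein, had 0.05, and the core proteins Uqcrc1 and Uqcrc2 had -0.15 and 0.13.

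In complex IV, Cox7c, a small structural subunit, had the smallest p in males (log2 fold change 0.41, SE 0.15, edgeR adjusted p = 0.293). Its mean CPM was 93.2 ± 14.8 (SD, n = 6) for Male WT and 116 ± 18.7 (SD, n = 6) for Male KO. Cox7c had fractional counts in 20 of 23 libraries, so reads may be divided with other loci and its value is uncertain. The same limit holds for other members, such as Uqcrb (21 libraries), Ndufb4 (20), Atp5mc1 (20), Ndufb2 (11) and Uqcr11 (10). Sdhd had fractional counts in 0 libraries. Cox4i1, a regulatory subunit, averaged 1181 ± 100.4 (SD, n = 5) in the Female WT livers and 1256 ± 95.3 (SD, n = 6) for Female KO. Male WT livers averaged 1200.2 ± 106 (SD, n = 6) and Male KO livers 1427 ± 270.2 (SD, n = 6) (log2 fold change 0.36, SE 0.15, edgeR adjusted p = 0.324). Male log2 fold changes were 0.40 for Cox7b and 0.38 for Ndufa4, but 0.14 for Cox5a, 0.09 for Cox6a1, 0.04 for Cox8a and -0.05 for Cox7a2l, which helps to join complexes III and IV. Cox5b and its near-identical copy Cox5b-ps had 0.16 and 0.15 and can share reads.

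In complex V, the catalytic-head subunits Atp5f1a and Atp5f1b had male log2 fold changes of -0.09 and -0.05. The central stalk subunits Atp5f1c, Atp5f1d and Atp5f1e had 0.14, -0.08 and 0.60, and the small membrane subunits Atp5mk and Atp5me had 0.56 and 0.41. Atp5mc1, Atp5mc2 and Atp5mc3 encode the same mature subunit c of the membrane ring, and they had 0.03, 0.08 and 0.09. Atp5mc3 had the smallest p of complex V in females (log2 fold change 0.18, SE 0.12, edgeR adjusted p = 0.725). Atp5if1, the inhibitor of ATP hydrolysis, had 0.08 in females and 0.31 in males.

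Atp5po, the stalk subunit linked to oligomycin sensitivity, is listed under 2 IDs on chromosome 16 that can share reads. The ID ENSMUSG00000022956 had a mean CPM of 380.2 ± 44.4 (SD, n = 6) for Male WT and 455 ± 93.0 (SD, n = 6) for Male KO, with a log2 fold change of 0.37. The other (ENSMUSG00000116933) had 19.0 ± 2.21 (SD, n = 6) and 25.3 ± 5.24 (SD, n = 6), and the smallest p of complex V in males (log2 fold change 0.48, SE 0.17, edgeR adjusted p = 0.270). Atp5pd, of the peripheral stalk, was the 1 member whose livers did not overlap in deposited CPM between the female groups. It had 223.0 to 232.0 CPM for WT and 232.3 to 282.0 for KO, where 0.457% of all genes were higher without overlap (log2 fold change 0.19, SE 0.13, edgeR adjusted p = 0.725). Deposited CPM lacks the library scaling (TMM) of the fit, so the lack of overlap is shown for unscaled CPM only. Atp5pd had fractional counts in 20 libraries.

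Coding length moved with these fold changes, in members and in other genes. A coding length was found for 82 of the 83 tested members and 89.7% of all tested genes, with medians of 400.5 and 1336.5 bases. In males the members' median log2 fold changes were 0.39, 0.25, 0.12 and -0.05 in classes of up to 300, over 300 to 600, over 600 to 1200 and over 1200 to 2400 coding bases, which held 23, 39, 11 and 9 members. The other tested genes of these classes had 0.25, 0.17, 0.06 and -0.02. In females the members had 0.10, 0.10, 0.08 and 0.03 and the other genes 0.09, 0.05, 0.02 and -0.01. The longest 2 classes hold fewer than 20 members each, and the part of length in the members' fold changes was not tested.

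**Figure D3:**
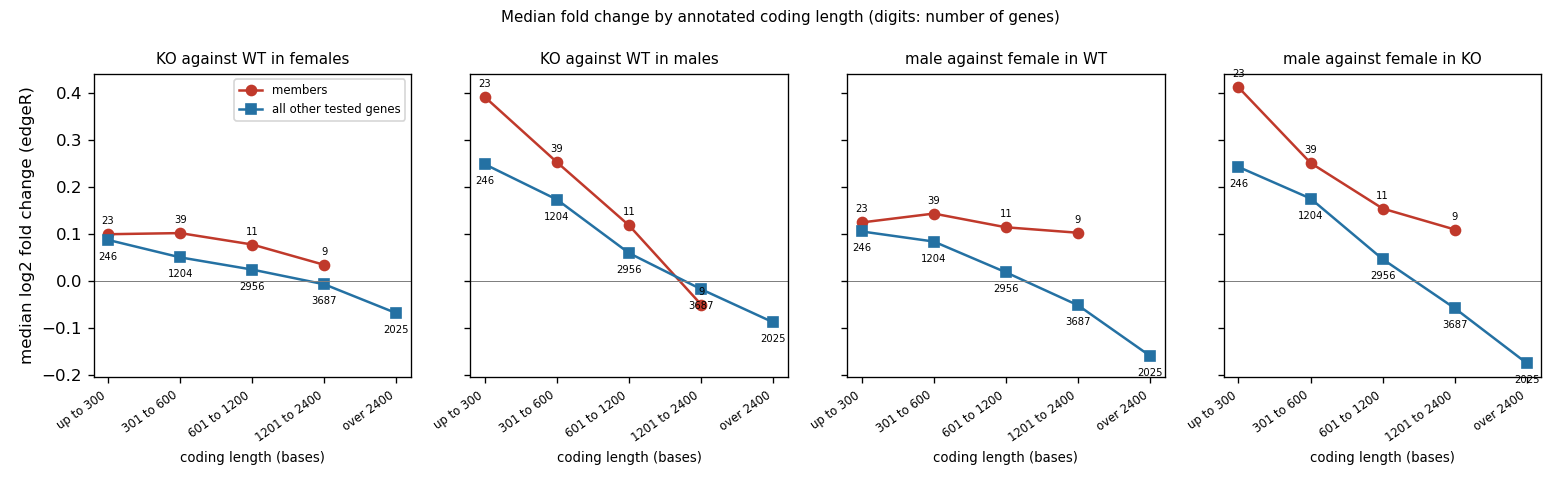
Median log2 fold change (edgeR, y axis) of members and of all other tested genes by class of coding length in bases (x axis), in 4 contrasts, with the number of genes beside each point. In males the members go from 0.39 in the shortest class to -0.05 in the longest that holds members, and the other genes from 0.25 to -0.09.

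The members' level was also followed liver by liver. For each liver the median over the 83 members of the deviation from each member's mean log2 CPM was taken. Across Male KO replicates 1 to 6 it was -0.13, -0.26, 0.45, 0.35, 0.44 and 0.29. Replicates 1 and 2 lay below every Male WT liver, and replicates 3 to 6 above them all. Male WT replicate 2 had 0.25 and the other 5 Male WT livers -0.12 to -0.03. The range was -0.25 to 0.00 for Female WT and -0.32 to 0.31 for Female KO, where replicate 4 was highest.
Of the 83 members 12 and 3 were above their own mean in Male KO replicates 1 and 2, and 71, 81, 82 and 77 in replicates 3 to 6. In Male KO replicate 5 the medians by complex were 0.44 (I), 0.23 (II), 0.48 (III), 0.44 (IV) and 0.43 (V). In Male KO replicate 2 they were -0.29 (I), -0.09 (II), -0.29 (III), -0.23 (IV) and -0.26 (V). In Male KO replicate 6 they were 0.29 (I), 0.00 (II), 0.32 (III), 0.33 (IV) and 0.27 (V), so that complex II did not stand high there with the others.

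Cytosolic ribosomal protein genes stood high in the same livers. Their median deviation across Male KO replicates 1 to 6 was -0.13, -0.21, 0.72, 0.31, 0.42 and 0.37, and it was 0.29 in Male WT replicate 2 and 0.30 in Female KO replicate 4. Of 90 tested, 0 were called in females and 0 in males, with median log2 fold changes of 0.00 and 0.26. The 13 mitochondrially encoded partners of the members had deviations of -0.05, 0.17, 0.35, -0.30, -0.10 and -0.41 across Male KO. None of the 13 was called by genotype (edgeR), with medians of -0.12 in females and 0.09 in males and 0 at an unadjusted p under 0.05 in either. Mitochondrially encoded transcripts took 16.1% of counts in Male KO replicate 3, 7.32% to 11.8% in the other Male KO livers and 7.87% to 9.35% for Male WT. The part of these library-wide differences in the members' fold changes was not tested.

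**Figure D4:**
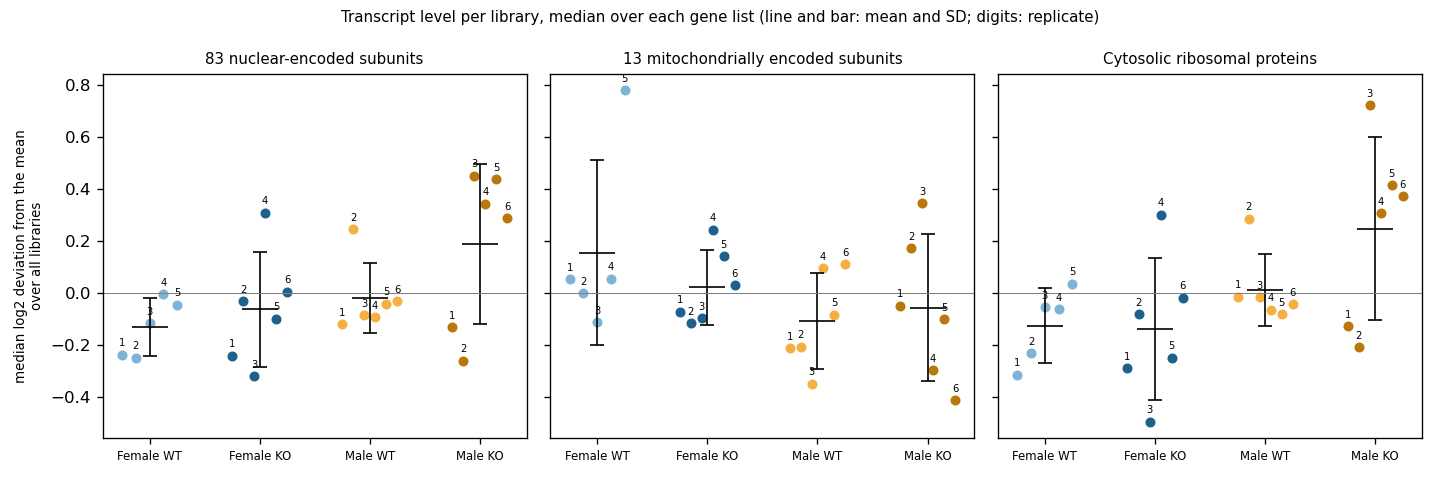
Median log2 deviation from the mean over all libraries (y axis) in each liver by group (x axis), for the 83 members, the 13 mitochondrially encoded subunits and cytosolic ribosomal proteins, with the mean and SD as line and bar and replicate numbers beside the points. For the members, Male KO replicates 3 to 6 lie at 0.29 to 0.45.

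The difference between the genotype effects of the sexes was tested as an interaction. It called 0 members and 0% of all genes, and DESeq2 called 0 members and limma-voom 0. At an unadjusted p under 0.05 there was 1 member, Atp5po (ENSMUSG00000116933, log2 difference 0.58), against 5.66% of all genes. The difference was positive in 68 members, against 54% of all genes, with a median of 0.13 against 0.03. That median was 0.08 without Male KO replicate 3 and 0.22 without Female KO replicate 4. The genotype effects of males and females are therefore not shown to differ.

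Between male and female WT livers 0 members were called, where 5.61% of all tested genes were. DESeq2 called 0 and limma-voom 0. At an unadjusted p under 0.05 there were 3 members, Ndufa8, Ndufv3 and Cox7a2, against 17.2% of all genes. The fold change was positive in 74 of 83 members, against 47.6% of all genes, with a median of 0.13 against -0.02, and 0.07 without Male WT replicate 2. All 13 mitochondrially encoded subunits had a negative fold change here, with a median of -0.28. Of these, 5 had an unadjusted p under 0.05 and none passed the adjusted threshold. Their median deviation was 0.78 in Female WT replicate 5 and -0.11 to 0.06 in the other Female WT livers.

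Between male and female KO livers 4 of 83 members (4.82%) were called, all higher in males. They were 1 each of complexes I, III, IV and V. Of all tested genes 7.44% were called and 3.67% were called higher, so the members' share was near that of all genes. At an unadjusted p under 0.05 there were 33 members, all higher, against 24.1% of all genes called at that level and 12.6% higher. The fold change was positive in 75 of 83 members, against 50.9% of all genes. The median was 0.27, against 0.01 over all genes, and by complex it was 0.28 (I), 0.03 (II), 0.27 (III), 0.25 (IV) and 0.27 (V). Of 90 cytosolic ribosomal proteins 64 were at that unadjusted level, with a median of 0.39. The 77 mitochondrial ribosomal proteins had a median of 0.24 and the 13 citrate cycle genes -0.06. In the class of up to 300 coding bases the median was 0.41 for members and 0.24 for other tested genes. The part of such differences in the members' values was not tested.

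Cox7a2, the form of this cytochrome c oxidase subunit found in liver, was 253, 338, 251, 359, 257 and 299 CPM across Female KO and 312, 317, 439.7, 421, 427 and 424 across Male KO. Male KO replicates 1 and 2 lay among the females and the other 4 above them all (log2 fold change 0.57, SE 0.15, edgeR adjusted p = 0.0180). Ndufb2, an accessory subunit of the complex I membrane arm, was 150.0, 192, 110.3, 207, 143 and 168 CPM across Female KO and 165, 154, 342, 255, 260.3 and 246 across Male KO. The same 4 male livers stood above all females (log2 fold change 0.72, SE 0.20, edgeR adjusted p = 0.0285). Uqcr11, a small complex III subunit, was 484, 553, 425, 627, 480.2 and 519 CPM across Female KO and 550.0, 458, 832, 786, 719 and 722 across Male KO. Again the same 4 male livers stood above all females (log2 fold change 0.56, SE 0.16, edgeR adjusted p = 0.0290).

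Atp5po ENSMUSG00000116933 was 16.7, 21.0, 18.3, 23.7, 15.8 and 17.9 CPM across Female KO and 21.3, 19.2, 32.3, 30.9, 24.7 and 23.4 across Male KO. Male KO replicates 1, 2 and 6 lay among the females (log2 fold change 0.55, SE 0.17, edgeR adjusted p = 0.0444). The ID ENSMUSG00000022956 was not called (log2 fold change 0.43, SE 0.16, edgeR adjusted p = 0.106). Ndufs1 went the other way without overlap in deposited CPM, at 48.2 to 56.7 for Female KO and 38.7 to 47.1 for Male KO. Of all genes 2.48% were lower without overlap, and Ndufs1 was not called (log2 fold change -0.14, SE 0.09, edgeR adjusted p = 0.363). Deposited CPM lacks the library scaling of the fit (TMM factors 0.898 to 1.11 in Female KO and 0.837 to 1.10 in Male KO). The lack of overlap is therefore shown for unscaled CPM only.

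The 4 calls depended on single livers. Of 12 fits without 1 KO liver, the call held in 9 for Cox7a2, 5 for Ndufb2, 4 for Uqcr11 and 3 for Atp5po ENSMUSG00000116933. The count of members called stayed near 4 in 1 of these 12 fits, that without Female KO replicate 2. It was 0 without Female KO replicate 1, 3 or 5, 2 without Female KO replicate 6 and 23 without Female KO replicate 4. It was 16 without Male KO replicate 1, 30 without replicate 2 and 1 without replicate 3, 4, 5 or 6. With the KO groups alone in the fit it was 0. The shares of all genes called in these fits are not given here, so the counts are not set against them. In WT livers the log2 fold changes by sex were 0.33 for Cox7a2, 0.18 for Ndufb2, 0.18 for Uqcr11 and -0.03 for Atp5po ENSMUSG00000116933, from other livers than those of the KO comparison.

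Some cytochrome c oxidase subunits exist in tissue forms, and 4 male livers stood high for the heart and muscle form of COX8. Cox8b was 19.9 CPM in Male WT replicate 2 and 18.0, 17.4 and 9.96 in Male KO replicates 2, 3 and 6, and at most 1.06 in the other 19 livers. Cox6a2, the heart and muscle form of COX6A, was 13.8 CPM in Male WT replicate 2, 7.74 in Male KO replicate 3 and 8.02 in Male KO replicate 6, and at most 0.890 in the others. Both were too low in most livers to be tested.
The summed CPM of 6 striated muscle markers, among them the actin gene Acta1, was 255 in Male WT replicate 2 and 145 and 112 in Male KO replicates 3 and 6, against a median of 14.9 for Male WT and 19.8 for Male KO. In Male KO replicate 2 these muscle markers summed to 27.0 CPM, below the 28.4 CPM of Female KO replicate 3. In that male liver the 4 adipose markers (Ucp1, Cidea, Adipoq and Plin1) summed to 38.7 CPM, with Ucp1 at 15.3 CPM. Ucp1 was at 0 in 18 of 23 livers.

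Cox7a1, the heart and muscle form of COX7A, was present in every liver. Its mean CPM was 8.72 ± 2.34 (SD, n = 5) for Female WT, 8.99 ± 2.56 (SD, n = 6) for Female KO, 7.08 ± 5.59 (SD, n = 6) for Male WT and 12.7 ± 7.88 (SD, n = 6) for Male KO. It was highest in Male KO replicate 3, at 27.7, and in Male WT replicate 2, at 18.4, and had the largest male fold change of the tested members (log2 fold change 0.82, SE 0.37, edgeR adjusted p = 0.361). Without the 4 livers high in Cox8b, a choice made after their values were seen, 0 members were called by genotype in males and their median was 0.31. Without them 3 of the 4 members were called by sex in KO livers, and Ndufb2 was lost.

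**Figure D5:**
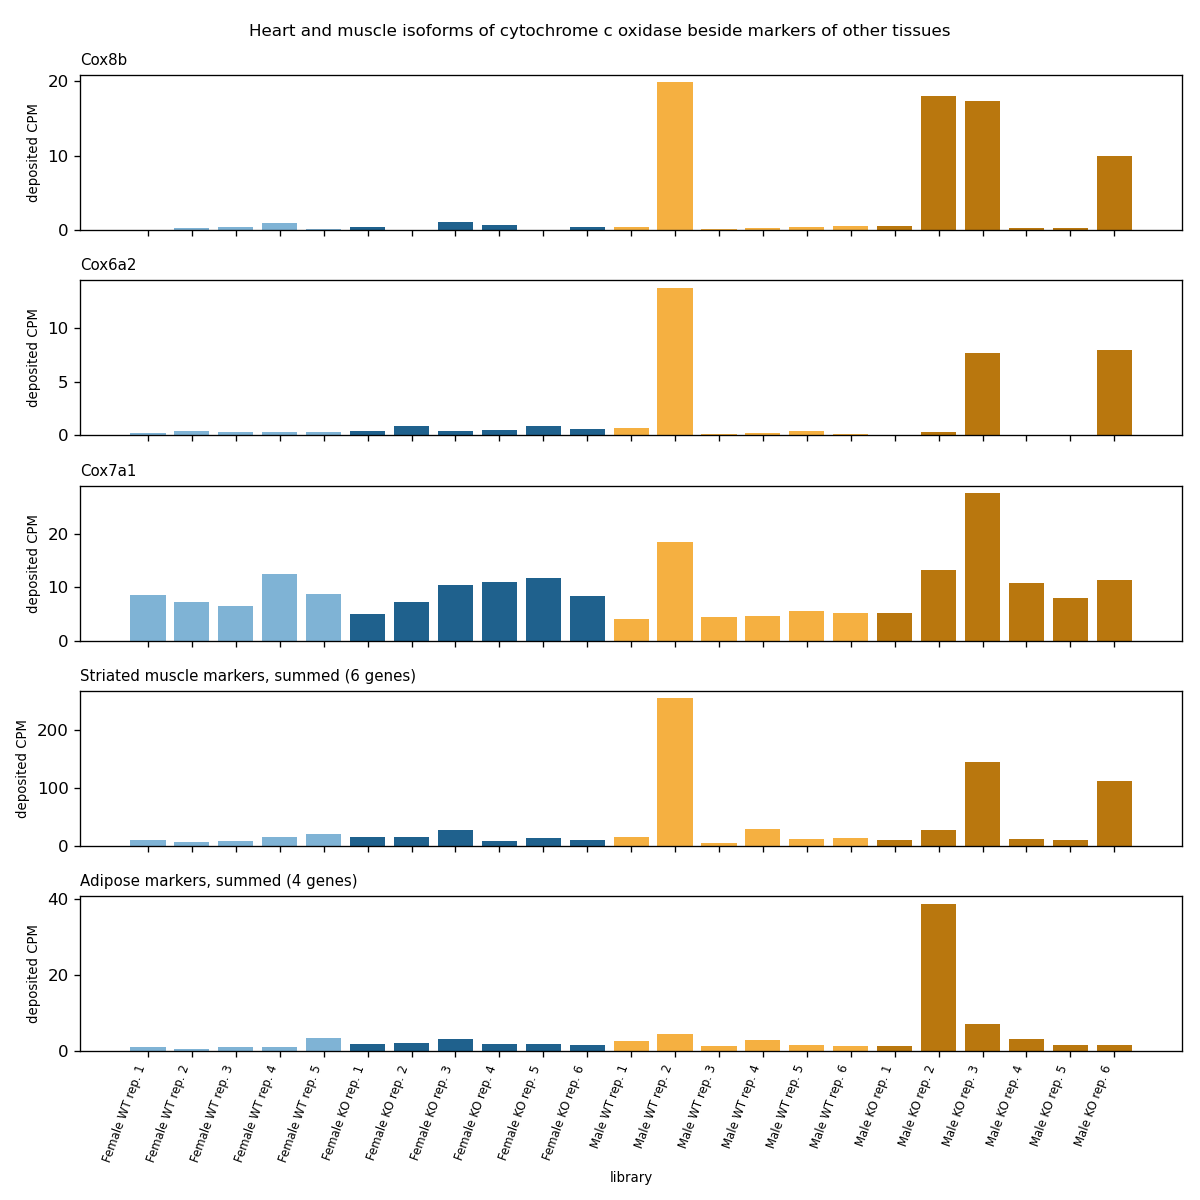
Deposited CPM (y axis) of Cox8b, Cox6a2 and Cox7a1 and summed CPM of 6 striated muscle and 4 adipose markers in each of 23 livers (x axis). Male WT replicate 2 and Male KO replicates 3 and 6 stand out for the muscle markers. Male KO replicate 2 stands out for the adipose markers.

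Cox6b2, known as the testis form of COX6B, was present in every liver and had the smallest p of complex IV in females. Across Female WT its CPM was 28.2, 35.1, 29.9, 46.5 and 24.5, and across Female KO 52.1, 33.1, 39.9, 70.3, 54.5 and 40.1. The groups overlapped (log2 fold change 0.61, SE 0.28, edgeR adjusted p = 0.528). The male germ cell markers Prm2, Tnp1 and Odf1 were at 0 in all 23 livers and Prm1 in 22. Cox6b1, the common form, had a mean CPM of 655 ± 66.5 (SD, n = 5) for Female WT and 694 ± 54.6 (SD, n = 6) for Female KO.
Cox4i2, a form of COX4 known from lung, had 57 counts over all libraries and was not tested. Ndufa4l2, known from hypoxic cells, ranged from 0.838 to 4.52 CPM, with log2 fold changes of 0.22 in females and 0.55 in males. Cox8c, Cox7b2 and Ndufb11b had 0 counts.

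Lists of genes that serve the system were read from the same fit. By genotype, edgeR called 0 of 6 other subunits and carriers, 0 of 55 assembly factors, 0 of 12 biogenesis regulators, 0 of 13 citrate cycle genes, 0 of 77 mitochondrial ribosomal proteins and 0 of 23 import genes in either sex. At an unadjusted p under 0.05 in males, against 13.1% of all genes, these lists held 1, 5, 1, 3, 18 and 3 genes, and 27 of 90 cytosolic ribosomal proteins were at that level. The male medians of the first 6 lists were 0.17, 0.14, -0.04, -0.06, 0.18 and 0.19, beside 0.25 for the members.
Ppargc1a, the coactivator of mitochondrial biogenesis, fell in males against females in WT (log2 fold change -0.92, SE 0.21, edgeR adjusted p = 0.00552) and in KO (log2 fold change -1.0, SE 0.22, edgeR adjusted p = 0.00397). Gabpa was lower in male than in female KO livers (log2 fold change -0.87, SE 0.24, edgeR adjusted p = 0.0201), as was Suclg2 of the citrate cycle (log2 fold change -0.71, SE 0.16, edgeR adjusted p = 0.00489). Higher in male than in female KO livers were Cox19 (log2 fold change 0.56) and Coa7 (0.48), 2 of 55 assembly factors. So were Timm9 (0.80) and Tomm40l (0.57), 2 of 23 import genes, with 4 of 77 mitochondrial ribosomal proteins and 8 of 90 cytosolic ones. Of all tested genes 3.67% were called higher in that comparison. Higher in male than in female WT livers were Cox11 (0.55), Mrps18a (0.39), Timm9 (0.63) and 1 of 90 cytosolic ribosomal proteins. Of all tested genes 5.61% were called by sex in WT, in either direction.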

How the data were processed

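PolyA RNA of whole liver was sequenced on an Illumina instrument by counting 3' ends, per the labels' protocols. The deposited table gives an expected count, which need not be whole, and a CPM value for 65535 gene IDs in 23 libraries, and the authors' CPM columns fall short of the common total by 0.575% to 1.14%. Genes with fractional counts held 33.7% to 55.0% of the counts, depending on the library. The submitters' processing notes name STAR (2.7.11), fastp (0.24.0), FastQC (0.12.1), Subread (2.1.1) with featureCounts, SAMtools (1.22.1), MultiQC (1.32) and the build mm39. The table may end at a row limit, and genes beyond it are not analysed here. Each of its value columns belonged to a sample.

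Counts were rounded and fitted with edgeR 4.0.16 in R 4.3.3 (quasi-likelihood, TMM, default filterByExpr), with 1 mean per group over all 23 libraries and 5 contrasts. Called genes have an adjusted p under 0.05 (Benjamini-Hochberg, 11370 genes). Printed CPM values are the deposited ones, and deviations use log2 CPM with a prior count of 2. 3' end counts were not divided by length, so levels are not compared between genes. The fit was also run on simulated counts, each gene drawn on its own with no library-wide shift. The outcome is not given here, and such counts cannot show how the fit handles shifts shared by many genes. Libraries of a group differed beyond sampling noise (chi-square per degree of freedom 3.05 to 37.5 over 55 pairs). Alternatives were DESeq2 1.42.0, limma 3.58.1 with and without sample weights, other scaling, no filter, a replicate block, fits of the compared groups alone, and leaving out libraries.

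The members and lists were chosen with earlier results of these data known. Named by rule are 43 members: those called, those with the smallest p per complex by genotype, those with the highest CPM per complex (a rule of choice, not a comparison of levels), tissue forms and landmark subunits. Others named were chosen after their values were seen. Of these 43, 1 is not reported here. Coding length is the longest coding sequence of the principal transcripts in GENCODE M21 (GRCm38), matched by gene ID.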

Additional observations from a re-analysis of the deposited data

Results flagged for a closer look

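Of 184 groups of livers examined, 25 held 1 value far from the rest of its group, judged by the gap to the nearest liver as a share of the range. Chance flags about 1 in 20 groups, and values from 1 liver are not independent. Of the 25 values 19 were of Male WT replicate 2. Its median member deviation was 0.25 on the log2 scale, against -0.12 to -0.03 in the other Male WT livers. Its summed CPM was 8332 in complex I (others 7164 to 7322), 3531 in complex III (2746 to 2938), 6563 in complex IV (5245 to 5472) and 7805 in complex V (6626 to 6730.4). Single members that stood high in this liver, in CPM, were Uqcrq at 1112, Cox4i1 at 1404, Atp5me at 943, Ndufb9 at 707, Ndufa4 at 662, Cox7a2 at 382, Cox7b at 381, Ndufb8 at 310.3, Cox7c at 123, Sdhc at 115 and Sdhd at 14.2. The muscle forms did so too, with Cox8b at 19.9, Cox6a2 at 13.8 and Cox7a1 at 18.4. The part of muscle transcripts in the other values was not tested.

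The other 6 values came from 6 livers. In Male KO replicate 3, the shallowest library, Cox7a1 was high at 27.7 CPM (others 5.13 to 13.2). Cox6b2 was high in Male KO replicate 5 at 85.8 CPM (24.7 to 42.6), and Atp5mc2 low in Male KO replicate 1 at 14.6 (19.1 to 20.6). Sdha was low in Female KO replicate 4 at 210.2 CPM (251 to 274), the liver with the highest median member deviation of its group. Cox4i2 was high in Female KO replicate 2 at 0.890 CPM (0.218 to 0.443), and Atp5po (ENSMUSG00000116933) in Female WT replicate 4 at 26.2 CPM (18.0 to 20.0).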

How the results depend on the processing

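The members' median log2 fold changes kept their sign in every setting run. With other tools, scalings, filters or groups they were 0.06 to 0.11 by genotype in females, 0.18 to 0.34 in males, 0.08 to 0.25 for the interaction, 0.08 to 0.15 by sex in WT and 0.22 to 0.36 by sex in KO. Without 1 library they were 0.01 to 0.14, 0.18 to 0.33, 0.08 to 0.22, 0.07 to 0.16 and 0.20 to 0.34, and the lowest female value was without Female KO replicate 4. The count of members called was 0 in every setting run by genotype in females and for the interaction. By genotype in males it was 0, but 32 by limma-voom with sample weights and 1 (Sdhd) with no filter. By sex in WT it was 0, but 1 with sample weights, 2 with no filter and 3 with the WT groups alone. By sex in KO it was 4, but 8 by DESeq2, 45 with sample weights, 7 with upper-quartile scaling, 0 with the KO groups alone and 0 to 30 without 1 library. The cause was not tested, and the shares of all genes called in these settings are not given here. Deviations of same-numbered livers correlated at -0.36 to 0.30, with 10 of 22 pairs over 0.1. Livers of unlike numbers were not compared, so whether the numbers pair the livers was not tested. With the replicate block the 5 counts were 0, 0, 0, 0 and 4 and the medians 0.09, 0.24, 0.13, 0.13 and 0.27. Members with few counts, such as Cox4i2, are limited by the depth of the shallowest library (1538889 counts).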
